A study of Mus musculus with 6 samples.

Results

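Intermediate filament genes were read in mRNA libraries of GC-2 spd(ts) cells, a mouse line derived from spermatocytes, germ cells of the testis that pass through meiosis. The genes were 10 by symbol: the keratins Krt7, Krt8, Krt18 and Krt19, the cytoplasmic filament genes Vim, Des and Nes, and the nuclear lamin genes Lmna, Lmnb1 and Lmnb2. Of these, 9 stood among the 22127 genes of the mRNA table, and Krt18 was not analysed here. The genes were picked with ratios of the same libraries already known, so their values are a description and no test is attached to them.

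The BPA group received 120 µM bisphenol A (BPA), a plastic monomer that can bind estrogen receptors, for 48 h. The control group received 0.1% dimethyl sulfoxide, the vehicle, for the same 48 h. All cells were first held without serum for 12 h and then kept in medium with 10% serum. Each group had 1 mRNA library and 1 circular RNA (circRNA) library, prepared from aliquots of the same RNA, so no difference given here has a replicate check. The line is a single immortalised cell line, not a testis tissue.

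Intermediate filaments are rope-like polymers that give cells and nuclei mechanical strength. Keratins, typical of epithelia, form filaments only as pairs of an acidic type I chain (Krt18, Krt19) with a basic type II chain (Krt7, Krt8). Vimentin (Vim) builds the filaments of mesenchymal cells and of Sertoli cells in the testis, desmin (Des) those of muscle, and nestin (Nes) joins them in progenitor cells. Lamins line the inner nuclear membrane, with A-type lamins made from Lmna and B-type lamins from Lmnb1 and Lmnb2.

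The mRNA libraries held 33071378 reads with BPA and 32312872 reads in control, recovered as whole numbers from the deposited values. A count of 0 allows up to 0.0907 reads scaled by the library total (CPM) with BPA and 0.0928 CPM in control. The labelled cell type was checked against 12 germ cell markers, of which 5 were listed. Ddx4 had 9 reads with BPA and 0 in control, Sycp3 had 0 and 6, and Hspa2, the most abundant of the 5, had 588 and 411. The defining germ cell markers were thus at or near 0 in both libraries.

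Ratios are given as log2 of BPA over control, on the log2(normalised count + 1) scale, with 95% exact binomial intervals that cover counting error only. All 9 genes had at least 10 reads in both libraries together, the filter used. Krt7 alone was lower with BPA by 2-fold or more, none was 2-fold higher, and 8 were within 2-fold. Over all 16870 genes past the filter, 4.61% were at least 2-fold lower and 6.88% at least 2-fold higher. Of the 9 genes 6 had a ratio below 0, against 48.1% of all genes, and their median was -0.36 against 0.02 for all genes. The interval left out a ratio of 1 for 7 of the 9, as it did for 54.7% of all genes.

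**Figure D1:**
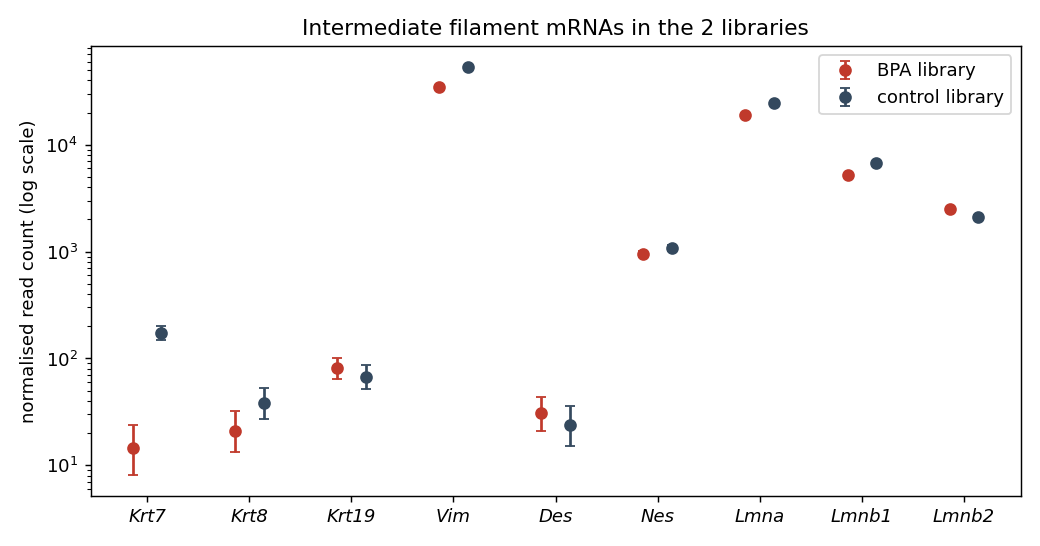
Normalised read counts of the 9 listed intermediate filament genes on a log axis, with the BPA library in red and the control library in dark blue; bars are 95% counting intervals of the single library. Vim is the highest gene in both libraries, and Krt7 is the gene whose 2 points lie farthest apart, at 14.4 with BPA and 175 in control.

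Among the keratins, Krt7 stood out. Krt7, a type II keratin of simple and glandular epithelia (ENSMUSG00000023039, GRCm38 chromosome 15, 101411043 to 101430313, plus strand), had 15 reads with BPA and 168 in control, normalised counts of 14.4 and 175. The level was low in both libraries, at 0.454 CPM with BPA and 5.20 CPM in control. Its log2 ratio was -3.51 (interval -4.47 to -2.83), 11.4-fold lower with BPA. Of the 16870 genes past the filter, 101 had a ratio as low or lower, Krt7 included, which is 0.599%. Its exons overlap 1 annotated gene, the antisense Gm671, over 1.09% of their length, and 0.916% of its 50-base words occur in transcripts of other genes.

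The other keratins of the set differed less. Krt8, the type II partner of Krt18 in simple epithelia (chromosome 15, 101996698 to 102004482), had 22 reads with BPA and 37 in control. Its ratio was -0.83, with an interval from -1.69 to -0.06. Of its 50-base words 29.7% also occur in other transcripts, led by the pseudogene Krt8-ps, so its few reads are uncertain as to their gene. Krt19, a type I keratin of ducts and glands (chromosome 11, 100140810 to 100148665), had 84 reads with BPA and 65 in control and a ratio of 0.25 (-0.23 to 0.75), a difference within counting error. The read ratio of Krt7 to Krt8, in which the scaling of the libraries cancels, was lower with BPA by a log2 difference of -2.74 (-3.92 to -1.56). The same difference was -3.86 (-4.85 to -2.92) for Krt7 to Krt19 and -1.12 (-2.09 to -0.17) for Krt8 to Krt19.

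The 250 bases before the transcription start of Krt7 are shown because this gene had the lowest ratio of the set. Those of Vim are shown because it was the most abundant gene of the set. They come from RefSeq on GRCm38.p6, where 8 of the 10 genes had an entry. Both windows lie inside the gene spans given here, which come from GENCODE and begin upstream of these RefSeq starts. Capitals mark matches, on either strand, to the TATA box sequence TATAAA, the CCAAT box, the GC box GGGCGG and the AP-1 site TGANTCA, and no marked match overlaps another.
Krt7, chr15:101412153-101412402, plus strand: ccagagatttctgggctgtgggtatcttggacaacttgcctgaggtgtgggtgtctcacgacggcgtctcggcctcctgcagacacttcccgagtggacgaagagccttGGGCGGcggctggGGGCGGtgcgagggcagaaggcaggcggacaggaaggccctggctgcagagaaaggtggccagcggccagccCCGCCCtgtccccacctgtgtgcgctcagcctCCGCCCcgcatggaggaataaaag
Vim, chr2:13574061-13574310, plus strand: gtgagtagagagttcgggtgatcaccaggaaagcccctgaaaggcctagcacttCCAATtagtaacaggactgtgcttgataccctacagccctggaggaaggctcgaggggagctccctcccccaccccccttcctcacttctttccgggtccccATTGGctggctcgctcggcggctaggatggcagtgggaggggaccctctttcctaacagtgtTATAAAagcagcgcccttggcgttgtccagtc
The Krt7 window held 4 matches to GGGCGG and none to the other motifs. At least 4 such matches were found in 4.09% of the 32851 promoter windows of the same length, and at least 1 in 32.7%. The Vim window held 1 match to TATAAA, present in 12.4% of windows, and 2 to CCAAT, present in 33.8%. TGANTCA, present in 6.75% of windows, was in neither. These are matches of letters, and no binding was measured.

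The remaining keratins were taken as every keratin symbol of the table, 15 in all with the members. Only 8 of the 15 had at least 10 reads in both libraries together, and the other 7 had at most 4 reads in either library. The most abundant was Krt80, a type II keratin that lies 40881 bases from Krt7, with 1538 reads with BPA and 2172 in control and a ratio of -0.61 (-0.70 to -0.51). Krt14, a type I keratin of basal epithelia, had 846 and 795 reads and a ratio of -0.02, whereas its usual partner Krt5 had 3 reads with BPA and 0 in control. Krt14 shares 13.9% of its 50-base words with Krt16 and Krt17. Krt10, also type I, had 198 reads with BPA and 170 in control and a ratio of 0.11 (-0.19 to 0.41), within counting error. Krt13 was at 0.74 (0.24 to 1.28) from 91 reads with BPA and 50 in control. Krt16 was at 0.73 (0.16 to 1.36) from 69 and 38, with 37.6% of its words shared. Of these keratins outside the set, Krt80 and Krt14 were named for their reads. Krt13 and Krt16 met the rule for genes within 100 kb of Krt19 with at least 50 reads in both libraries together. Krt5 and Krt10 met no such rule and were named after their values were seen. Summed over the table, the 8 type II keratins had 48.0 CPM with BPA and 73.6 CPM in control, and the 7 type I keratins had 39.0 CPM with BPA and 34.7 CPM in control.

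**Figure D2:**
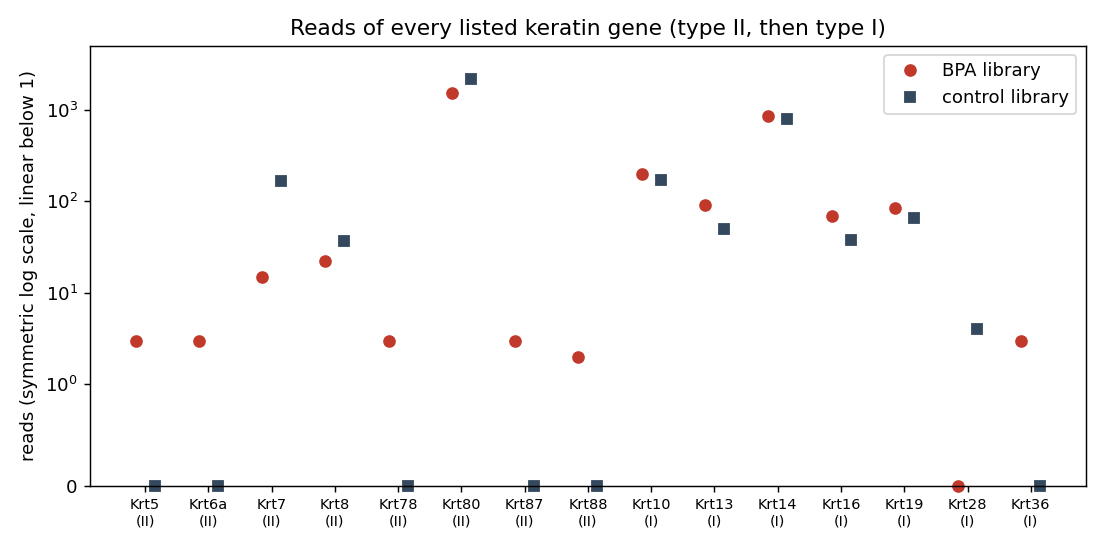
Reads of the 15 listed keratin genes, type II on the left and type I on the right, as red circles for the BPA library and dark squares for the control library, on a symmetric log axis that is linear below 1. Krt80 and Krt14 carry most keratin reads, and Krt7 has 15 reads with BPA and 168 in control.

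Of 11 epithelial markers, 6 were listed and 2 passed the read filter, Esrp2 with 231 reads with BPA and 352 in control and Rab25 with 10 and 19. Cldn7, Grhl2 and Ovol1 had 0 reads in control and at most 4 with BPA, and Esrp1 had 0 with BPA and 3 in control. The 6 markers summed to 7.59 CPM with BPA and 11.6 CPM in control. Their part in the keratin values was not tested. In these bulk libraries, fewer cells of a type and less RNA per cell cannot be told apart.

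Vim dominated the cytoplasmic filament mRNA and was lower with BPA. Vim (chromosome 2, 13573927 to 13582826) had 36449 reads with BPA and 51685 in control, which was 0.110% of all reads with BPA and 0.160% in control. It ranked 71 by reads in the BPA library and 43 in control. Its ratio was -0.62 (-0.63 to -0.60), 1.53-fold lower with BPA, and 9.50% of all genes past the filter had a ratio as low or lower. In the authors' deposited table all 9 genes, Vim and Krt7 included, had high adjusted p-values. These come from a test of 1 library against 1 that is not named there.

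Nes and Des differed from Vim. Nes (chromosome 3, 87971078 to 87980451) had 987 reads with BPA and 1044 in control and a ratio of -0.19 (-0.32 to -0.07). Des (chromosome 1, 75360329 to 75368579) had 32 reads with BPA and 23 in control, and its ratio of 0.35 (-0.45 to 1.20) was within counting error. Set against Vim in the same library, Nes was higher with BPA by a log2 difference of 0.42 (0.30 to 0.55) and Des by 0.98 (0.16 to 1.82). Of the Des words of 50 bases, 4.61% lie in the antisense gene Gm15179, and the labels and headers do not say whether strand was used in counting.

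Mesenchymal and smooth muscle markers were lower beside Vim. All 13 mesenchymal markers were measured, 11 had a ratio below 0, and 2 of them, Col1a1 and Col1a2, were past 2-fold. Their median was -0.63. They summed to 4548 CPM with BPA and 6617 CPM in control. Over all genes past the filter, 48.1% had a ratio below 0, 4.61% were at least 2-fold lower and 6.88% at least 2-fold higher. Of 8 smooth muscle markers 7 passed the filter, 5 of them lower by 2-fold or more, with a median of -1.19 and a sum of 271 CPM with BPA and 539 CPM in control. The actin-nucleating Lmod1 had 46 reads with BPA and 146 in control, and the enteric actin Actg2 had 32 and 101. Acta2, Tagln and Myl9 were the other members past 2-fold. Myh11, the smooth muscle myosin, had 9 reads with BPA and 0 in control, and Cnn1 had 25 and 21. The part of these markers in the Vim value was not tested. Striated muscle markers, whose cells use Des, had 3 of 10 listed and a sum of 0.635 CPM with BPA and 0.650 CPM in control. Neural progenitor markers, whose cells use Nes, had 4 of 8 listed and a sum of 11.0 CPM with BPA and 6.31 CPM in control. Tubb3 alone made up most of that sum, at 9.46 CPM with BPA and 5.45 CPM in control. Msi1 had 45 reads with BPA and 24 in control, and Sox2 had 2 and 0. The Sertoli cell list, whose cells use Vim, had 7 of 10 listed, 6 with a ratio above 0, and a sum of 151 CPM with BPA and 130 CPM in control. Its median was 0.58, and 0.36 over the 4 genes with at least 50 reads. Those past 2-fold, both higher and both under 50 reads, were Amh with 33 reads with BPA and 10 in control and Wt1 with 26 and 8. Of the 4 genes with at least 50 reads, Clu had 2586 reads with BPA and 1821 in control (0.39). Gata4 went the other way, with 1795 and 1959 (-0.24). The others were Sox9 with 525 and 389 (0.32) and Rhox5 with 38 and 23 (0.59). Endothelial and leukocyte markers, all 6 listed, summed to 10.8 CPM with BPA and 9.01 CPM in control. Of the 5 past the filter 2 were at least 2-fold higher, and both passed it mainly through their reads in the BPA library. Cd74 had 22 reads with BPA and 2 in control (2.85, interval 1.32 to 6.48) and Pecam1 had 18 and 3 (2.15, 0.70 to 4.88). Cd68 had 236 reads with BPA and 147 in control (0.57), and Kdr had 77 and 127 (-0.83). Cdh5 had 5 reads with BPA and 9 in control (-0.83, interval -2.88 to 0.77), and Ptprc had 0 and 3. The markers under 50 reads in both libraries together in these last lists were named after their values were seen.

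**Figure D3:**
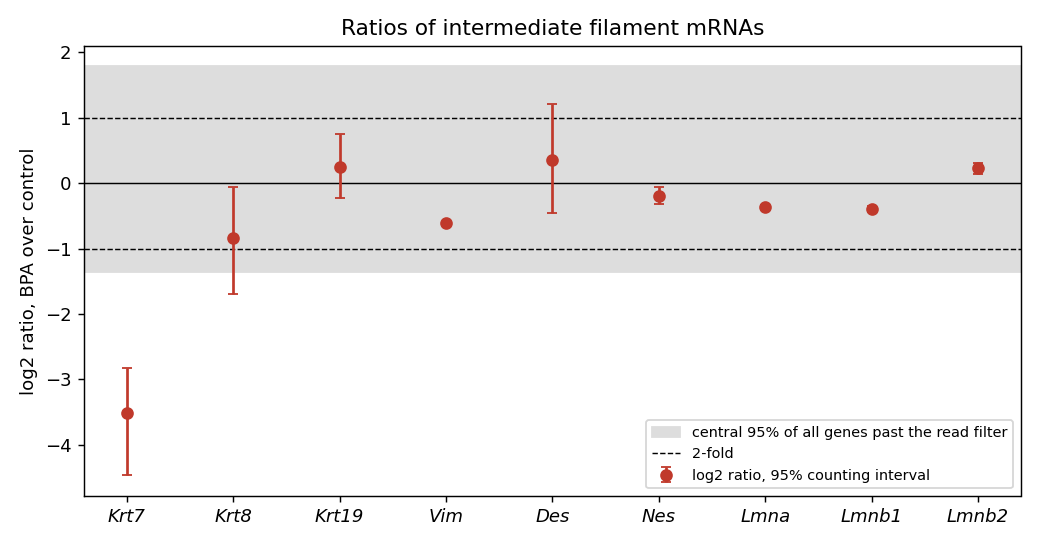
Log2 ratio of BPA over control for each of the 9 genes with its 95% counting interval; the grey band spans the central 95% of all 16870 genes, from -1.36 to 1.79, and dashed lines mark 2-fold. Krt7 lies below the band and the other 8 points lie inside it.

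The B-type lamins differed in sign. Lmnb1 (chromosome 18, 56707813 to 56753424), a lamin known to be lost in senescent cells, had 5387 reads with BPA and 6550 in control and a ratio of -0.39 (-0.45 to -0.34). Lmnb2 (chromosome 10, 80901203 to 80918245) had 2581 reads with BPA and 2037 in control and a ratio of 0.23 (0.15 to 0.31). There were 0.479 Lmnb2 reads for each Lmnb1 read with BPA and 0.311 in control, a log2 difference of 0.62 (0.52 to 0.72) in which the library scaling cancels. Both ratios were within 2-fold and lay inside the central 95% of all genes.

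Lmna (chromosome 3, 88480147 to 88509956), whose transcripts are spliced to lamin A or lamin C, had 19865 reads with BPA and 23581 in control. Its ratio was -0.36 (-0.39 to -0.33), and the table gives 1 value for the gene, so the A and C forms were not separated. Set against Lmnb1 it differed by 0.03 (-0.02 to 0.09), within counting error, and against Lmnb2 by -0.59 (-0.68 to -0.50). Per length of annotated exons, Lmna made up 58.4% of lamin mRNA with BPA and 60.1% in control, Lmnb1 31.2% and 32.9%, and Lmnb2 10.3% and 7.07%. Per length of the longest coding transcript the shares were 70.6% with BPA and 72.2% in control for Lmna, 21.2% and 22.3% for Lmnb1, and 8.19% and 5.57% for Lmnb2.

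**Figure D4:**
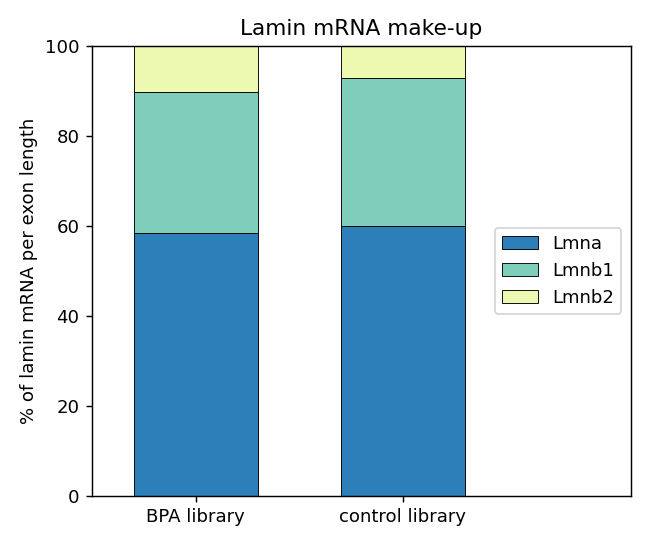
Share of lamin mRNA, in percent of reads per annotated exon length, held by Lmna, Lmnb1 and Lmnb2 in the BPA library (left) and the control library (right). The Lmnb2 share is 10.3% with BPA and 7.07% in control, and Lmna is the largest share in both.

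Levels of different genes were compared as RPKM, which is CPM divided by the length of all annotated exons in kilobases. Vim was highest, at 232 RPKM with BPA and 337 RPKM in control, followed by Lmna at 103 and 125, Lmnb1 at 55.0 and 68.4, Lmnb2 at 18.2 and 14.7, and Nes at 4.65 and 5.04. The 4 genes below these were all under 2 RPKM, and Krt19 led them with 1.37 RPKM with BPA and 1.08 RPKM in control. In the BPA library Krt8 (0.340, interval 0.213 to 0.514) and Des (0.258, 0.176 to 0.364) had overlapping intervals and Krt7 was last at 0.0643 (0.0360 to 0.106). In the control library Krt7 (0.738, 0.630 to 0.858) and Krt8 (0.585, 0.412 to 0.806) overlapped and Des was last at 0.190. The place of Krt7 in control depends on its length: with its longest coding transcript of 4094 bases in place of all 7049 exon bases its level was 1.27 RPKM, beside 1.28 RPKM for Krt19.

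Partners of the filaments were read from lists chosen by function. Of 17 genes that link filaments to each other or to junctions, 12 passed the filter and none was 2-fold higher or lower. Of the 12, 8 had a ratio below 0, with a median of -0.20. Over all genes past the filter, 48.1% had a ratio below 0 and 11.5% were at least 2-fold higher or lower. Plectin (Plec), the large cross-linker of filaments, had 20461 reads with BPA and 25453 in control (ratio -0.43). Dst was at 0.11, Macf1 at -0.19 and the plakophilin Pkp4 at -0.37. The lowest, named after their values were seen, were the desmosomal plakophilins Pkp2 with 1171 reads with BPA and 2000 in control (-0.88) and Pkp1 with 1309 and 2143 (-0.82).

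Proteins that bind the lamina or connect it to the cytoskeleton were nearly balanced. All 19 were measured, 9 with a ratio below 0 and 10 above, with a median of 0.08. For comparison, 48.1% of all genes past the filter had a ratio below 0, and 4.61% were at least 2-fold lower. Syne3, a nesprin that ties the nuclear envelope to plectin and through it to intermediate filaments, was the 1 member past 2-fold, with 967 reads with BPA and 1809 in control and a ratio of -1.01 (-1.13 to -0.90). With scaling by the library total it was within 2-fold. The nesprin Syne1, named after its value was seen, was the highest, with 1684 reads with BPA and 1026 in control (0.60). Of the most abundant, Tpr was at -0.06, Tmpo at -0.18, Banf1 at -0.04 and Nup153 at -0.34. The SUN proteins that anchor nesprins differed in sign, with Sun1 at 0.26 and Sun2 at -0.27, again named after their values were seen.

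The enzymes and binding proteins of prelamin differed little between the libraries. All 6 were within 2-fold, with ratios from -0.34 to 0.12 and a median of -0.04. The protease Zmpste24, which trims prelamin A, had 4950 reads with BPA and 4832 in control (-0.08), the methyltransferase Icmt was at 0.12, the farnesyltransferase subunit Fnta at -0.34 and Narf, a prelamin A binder, at 0.01. Filament chaperones, the kinases that phosphorylate filaments and the caspases that cut them were all within 2-fold as well. Of these 12 genes 8 had a ratio below 0, with a median of -0.10. Among all genes past the filter, 48.1% had a ratio below 0 and 11.5% were at least 2-fold higher or lower. The small heat shock proteins Cryab, with 3126 reads with BPA and 4089 in control (-0.50), and Hspb1, with 8607 and 10173 (-0.35), bind desmin and vimentin filaments. The mitotic kinases Cdk1 and Plk1 were at -0.17 and -0.42.

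**Figure D5:**
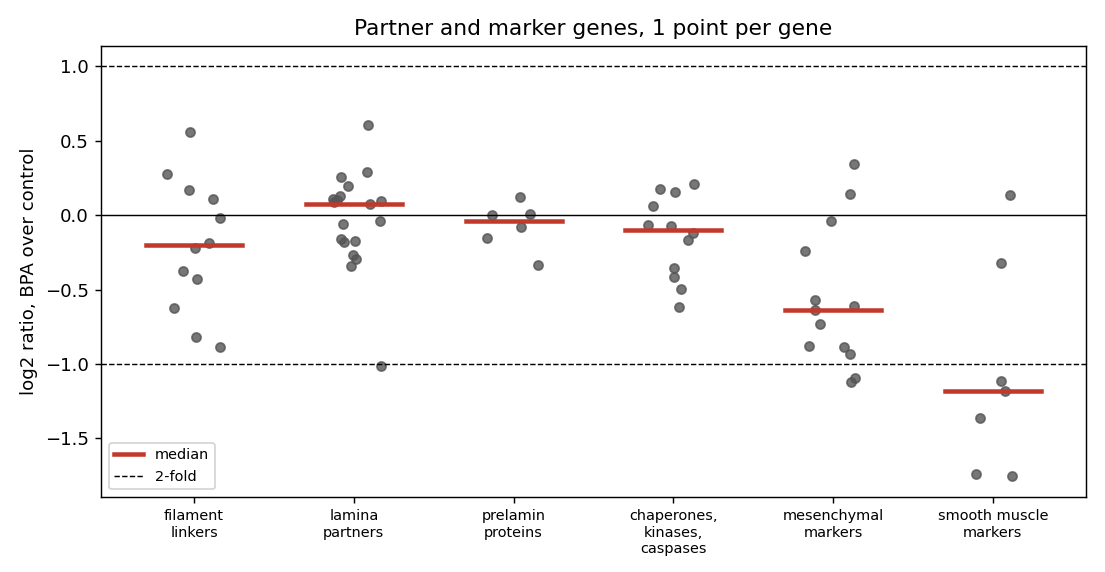
Log2 ratio of BPA over control for genes past the read filter in 4 partner lists and 2 marker lists, 1 point per gene, with the list median as a red line and dashed lines at 2-fold. Medians are -0.20 for filament linkers, 0.08 for lamina partners and -1.19 for smooth muscle markers, beside 0.02 for all genes.

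Beyond keratins, the other filament genes of the table were few. Of the 23 filament genes outside the set, keratins included, 19 were listed and 10 passed the filter, with a median of 0.24. Iffo2 had 2335 reads with BPA and 3110 in control (-0.52) and Iffo1 had 484 and 348 (0.36). The members past 2-fold were neuronal filament genes read only with BPA, Prph with 10 reads and Nefh with 14, each with 0 in control. Of all genes past the filter, 6.88% were at least 2-fold higher. Prph and Nefh passed the filter through the BPA library alone, so a ratio past 2-fold higher followed from the filter. Their counting intervals, which began at log2 values of 1.05 for Prph and 1.62 for Nefh, carry the same limit. With 3 counts per library in place of 0 in control, Prph was at 1.63 and Nefh at 2.11. Both stayed the highest of the list, so the median of 0.24 could not move and this is no check of it. With at least 50 reads, which leaves both genes out, the median was 0.05.

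The circRNA libraries, which the choice of genes did not use, held few back-splice events from filament genes. Of 17586 events with BPA and 12909 in control, Lmna gave 4 with BPA and 0 in control over 3 circRNAs, Vim 0 with BPA and 2 in control, and Lmnb1 1 in each. The keratins, Des, Nes and Lmnb2 had none listed. A count of 0 allows a share of up to 0.0171% with BPA and 0.0232% in control, so none of these differences was detectable at this depth. Vim mRNA, among the most abundant of the table, thus had a single circRNA listed.

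The junctions of the exonic Vim and Lmna circRNAs are shown because the joined exon ends are what sets each circRNA apart from the linear mRNA. Each is built from the genome at the listed ends, not taken from reads, and joins the last 15 bases of the later exon, in lower case, to the first 15 of the earlier exon, in capitals, read from GRCm38. In each, the annotated exon is followed in the genome by GT and preceded by AG.
Vim, exon 7 to exon 4, chr2:13578589-13580683, plus strand: ccctgaacctgagagGAGATCCAGGAGCTG
Lmna, exon 7 to exon 2, chr3:88484615-88488431, minus strand: aacaagtccaacgagCAACACCAAGAAGGA
Lmna, exon 10 to exon 8, chr3:88483318-88484154, minus strand: ctccatcaccaccgtGACCAGTCCATGGGC
The Vim junction had 0 events with BPA and 2 in control, and each Lmna junction had 1 event with BPA and 0 in control. The other Lmna circRNA, of exon and intron sequence, had 2 events with BPA and 0 in control. The exonic Lmnb1 circRNA, of exons 2 to 5, had 1 event in each library, and its junction is not shown.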

How the data were processed

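The deposited mRNA and circRNA values were log2 values per the file headers, and the authors' comparison columns held p-values and adjusted p-values from an unnamed test. After undoing the log2 and subtracting the added 1, 100% of mRNA values fell on whole steps within 0.001, the step being 0.962 in the BPA library and 1.04 in control, and division by it recovered reads. For circRNA the step was 2, taken as 1 event. STAR and StringTie, and builds GRCm38 and mm10, are named in the submitters' processing notes; no source used here gives the counter or annotation.

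Ratios used the authors' scaling and a pseudocount of 1, and genes needed 10 reads in both libraries together. Intervals of single genes were exact binomial (SciPy 1.17.1). Those of ratios between genes were exact conditional intervals of the odds ratio where a gene had few reads. Between well-read genes they used the normal approximation of the log odds ratio. PCR reads without molecular identifiers are not independent molecules. GENCODE M21 gave positions and lengths. Ratio code was tested on simulated data. The genes, lists and settings were chosen with earlier results of these data known, and all set members were named. Of each partner list the members past 2-fold with 50 reads were named, or else the 4 with most reads. The cell type lists did not all follow this rule. Alternatives were other pseudocounts, library totals, trimmed mean of M-values (TMM, own code) and other read filters. The miRNA table was not used here.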

Additional observations from a re-analysis of the deposited data

How the results depend on the processing

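Each of the 9 genes kept its direction and its side of 2-fold under pseudocounts of 0.5 and 5 and scaling by library totals or by TMM, and Krt7 ranged from -3.55 to -3.21. Of the 36 ratios recomputed in this way, 33 stayed inside their counting interval; a filter on reads leaves a ratio as it is, and all 9 genes also passed that of 50 reads. With library totals, Vim was at -0.54, Lmna at -0.28 and Lmnb1 at -0.32, because that scaling moved all genes, whose median was then 0.09. Over all genes 277 were 2-fold lower and 440 higher with at least 50 reads, and 2381 and 2978 with no filter, against 778 and 1160. Past the 50-read filter the other filament genes had a median of 0.05, the Sertoli list 0.36, and the endothelial and leukocyte list -0.13 against 0.57, each with none at 2-fold. With a pseudocount of 5 the Sertoli median was 0.39. The prelamin list had a median of 0.04 with library totals, opposite in sign to -0.04. The alternative of transcript length, chosen after seeing the data, gave Vim 503 RPKM with BPA and 729 RPKM in control, and Lmna 190 and 231. No paired analysis was possible because each group had 1 library. Depth limited Krt7, Krt8, Krt19, Des and all circRNAs.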

Other observations

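The keratin genes lie in clusters, and genes within 100 kb of the set's keratins with at least 50 reads in both libraries together were read beside them. Near Krt8 and Krt18, the translation factor Eif4b had 25167 reads with BPA and 30532 in control, a log2 ratio of -0.39 (-0.41 to -0.37). The focal adhesion protein Tns2 had 2023 and 1722 reads (0.12) and Spryd3 had 2048 and 1929 (-0.03). Near Krt7 only Krt80 reached that depth, and Krt87, which lies 725 bases from Krt7, had 3 reads with BPA and 0 in control. Near Krt19 the keratins Krt13, Krt14 and Krt16 reached it.

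Lamina partners had more circRNA events than the filament genes themselves. They gave 40 events with BPA and 17 in control, from 25 circRNAs of 12 host genes, while all circRNAs together gave 17586 and 12909. Filament linkers gave 27 events with BPA and 23 in control from 5 host genes.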
